A study of Mus musculus with 4 samples.

Results

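The genes described here encode 10 proteins of the intercalated disc and of cell-cell junctions, measured in mouse ventricle with and without the orphan nuclear receptor ERRα (gene Esrra). They were Cxadr, Tjp1, Gja1, Cdh2, Ctnnb1, Ctnna1, Vcl, Jup, Dsp and Perp. Every probe set annotated to exactly 1 of these genes was taken, which gave 15 of the 12422 non-control probe sets on the arrays, for 10 of 8251 named genes. Dentin sialophosphoprotein, Dspp, shares the older name Dsp with desmoplakin. Its probe set was left out as a different gene. The genes were chosen by name, with the signal differences between knockout and wild type already known and that of Cxadr in particular seen, so their differences are given as a description and not as evidence.

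The groups were 2 arrays labelled ERRa ko and 2 labelled ERRa wt, each from total RNA of heart ventricle at baseline, that is, without pressure overload. The labels give no strain, age, sex or targeting allele, and do not say whether a sample is 1 animal or a pool. The comparison concerned baseline expression, and the quantitative PCR and the overloaded hearts of its design were not used here. Signals are linear intensities scaled by array, and because each probe set has its own binding properties, levels are compared only within a probe set.

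The intercalated disc is the end-to-end contact between heart muscle cells. Its adherens junctions join cadherins through catenins and vinculin to actin, its desmosomes join desmosomal cadherins through plakoglobin and desmoplakin to desmin filaments, and its gap junctions pass current from cell to cell. In the heart these contacts hold contracting cells together and carry the action potential, and in mouse and human defects of several of their proteins are known to cause arrhythmia or dilated cardiomyopathy. ERRα is best known as a regulator of mitochondrial energy genes.

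The arrays were checked first on the deleted gene. The stronger Esrra probe set gave 922 and 1050 in knockout, against 8598 and 8038 in wild type, and the weaker one gave 83.6 and 55.2 in knockout, against 2688 and 2828 in wild type. The part of the gene that was deleted is not given in the labels, so where these probes lie relative to it is not known. The weaker set lay below the floor of 110 on both knockout arrays and was therefore at least 25.1-fold lower in knockout. It was the 1 of 7453 tested probe sets that passed limma's adjusted threshold of 0.05 (0.0134%, adjusted p = 0.0441). The stronger set, 8.45-fold lower in knockout without overlap, did not pass (limma adjusted p = 0.179). A probe set that does not pass can therefore not be called unchanged. Ventricular muscle markers Myh6, Myl2 and Tnnt2 were strong on every array, from 85428 for Tnnt2 in knockout to 205416 for Myl2 in knockout, and no member lies on the chromosome of Esrra. The ratio of 5' to 3' signal, a measure of RNA integrity and labelling, was 0.694 and 0.813 for β-actin in knockout, against 0.966 and 0.909 in wild type, and 0.994 and 0.968 for Gapdh in knockout, against 1.04 and 1.01 in wild type. Its part in the differences below was not tested.

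**Figure D1:**
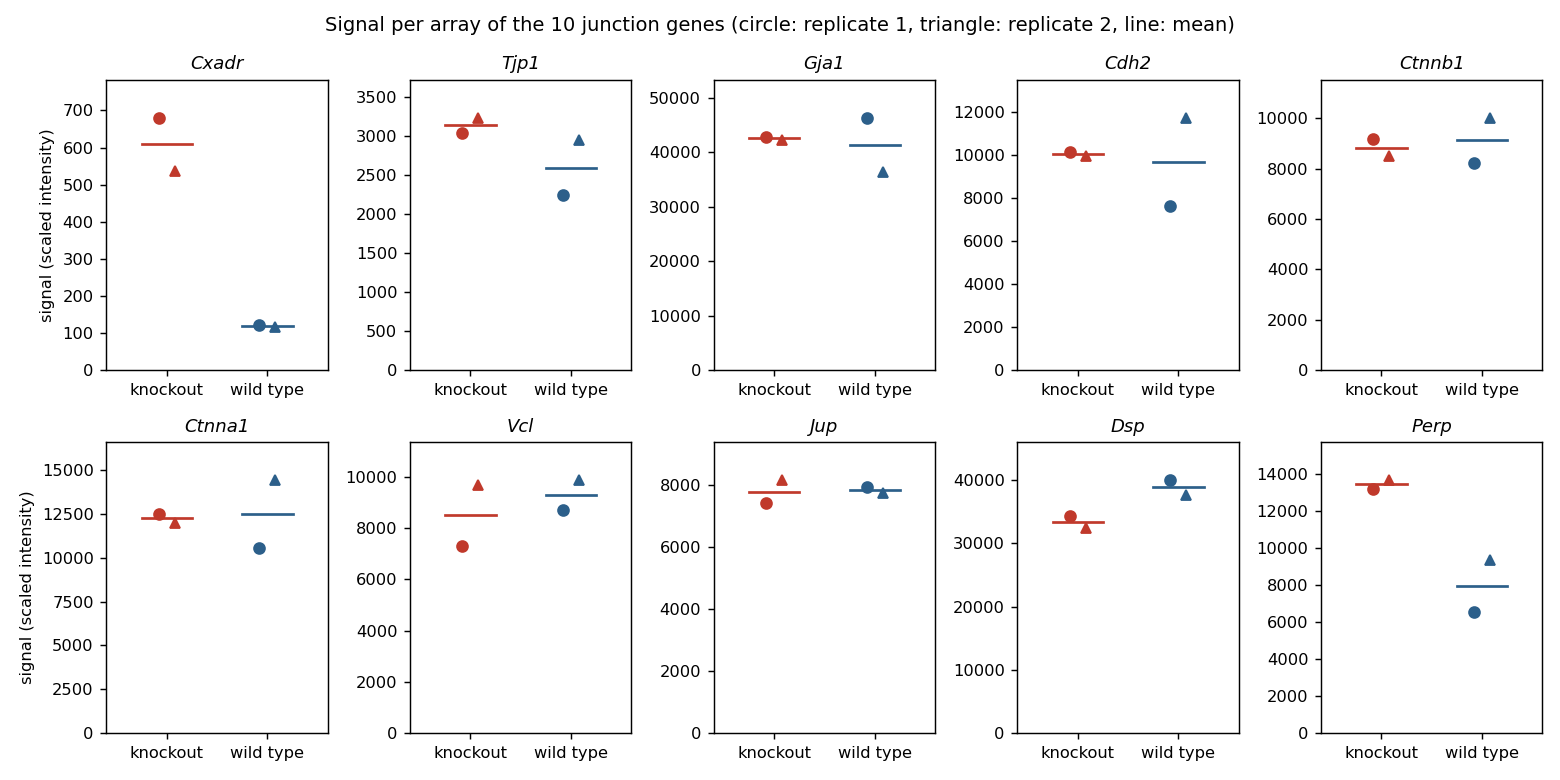
Signal (linear scaled intensity, vertical axes from 0, a separate scale for each gene) of the strongest probe set of each of the 10 genes, with knockout in red on the left and wild type in blue on the right; circles are replicate 1, triangles replicate 2, and lines the mean of 2 arrays. Cxadr, Tjp1 and Perp were higher in both knockout arrays than in both wild-type arrays, Dsp was lower, and the groups of the other 6 genes overlapped.

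For Gja1, Cdh2, Ctnnb1, Ctnna1, Vcl and Jup, 6 of the 10 genes, the groups overlapped and the strongest probe set differed by less than 0.2 on the log2 scale. Cxadr, Perp and, by less, Tjp1 were higher on both knockout arrays, and Dsp was lower. Of the 15 probe sets 12 passed the filter on low signal (a mean of at least 350.6), and all 10 genes kept at least 1. Of these 12, 3 were higher in knockout without overlap between groups (beside 20.7% of all tested probe sets), 1 was lower (beside 16.7%) and 8 overlapped. In all 33.3% did not overlap, beside 37.4% of all tested probe sets. A difference of at least 1.5-fold without overlap was found for 2 of 12 (16.7%), Cxadr and Perp, beside 11.0% of all tested probe sets. Higher signal of that size in knockout was found for 6.84% of all tested probe sets and lower signal for 4.20%, so that 62.0% of such probe sets were higher, or 48.9% after quantile normalization. None of the 12 passed limma's threshold (adjusted p from 0.430 to 0.993), and 2 had an unadjusted p under 0.05, beside 6.79% of all tested probe sets. Over the strongest probe set of each of the 10 genes the median log2 difference, knockout minus wild type, was 0.02, with 5 genes higher and 5 lower. Beside it stood 0.01 over all tested genes, counted in the same way, and 0.03 over all tested probe sets. The median of the 10 genes was -0.02 after scaling the arrays to 1 median and 0.08 after quantile normalization. The contrast is the one with which the genes were proposed, so nothing is read from these shares. With 2 against 2 arrays an exact permutation test cannot give a two-sided p below 0.333, and none is given.

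**Figure D2:**
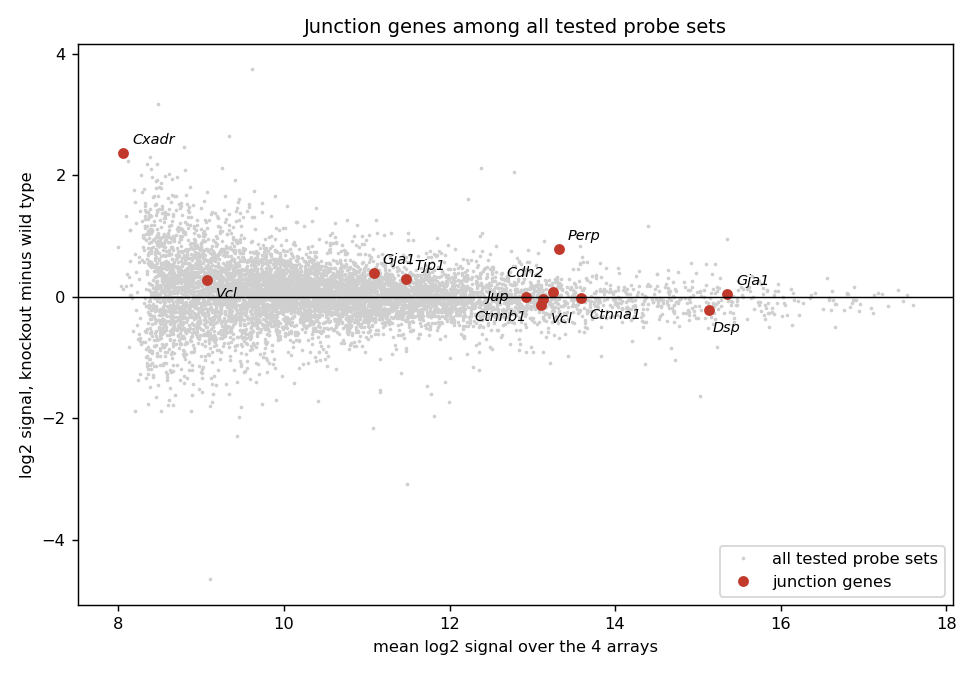
Log2 signal difference, knockout minus wild type, of every tested probe set (grey, 7453) against its mean log2 signal over the 4 arrays, with the 12 tested probe sets of the junction genes in red. Cxadr lies at the weak end with a log2 difference of 2.36, Perp at the strong end with 0.78, and the other members lie between -0.22 and 0.40.

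Cxadr encodes the coxsackievirus and adenovirus receptor, an immunoglobulin-family adhesion protein of the disc and of tight junctions. In mice it is needed for heart development and for conduction through the atrioventricular node. Its single probe set, 93725_at, gave signals of 681 and 538 in knockout, against 121 and 115 in wild type. Both knockout arrays lay above both wild-type arrays, and each pair was close. The means were 609 ± 101 in knockout and 118 ± 3.89 in wild type (SD, n = 2 each), with a log2 difference of 2.36 (SE 0.22), or 5.13-fold between means of log2 signal.

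The wild-type Cxadr signals lay near the bottom of the arrays' range. The knockout signals stood at the 53.9th and 48.7th percentiles of their arrays, and the wild-type signals at the 21.5th and 22.7th, just above the floor of 110. The mean over the 4 arrays was 364, against a filter of 350.6, so Cxadr was tested only because of its knockout signal. Among the weakest 20% of tested probe sets, where Cxadr lies, 234 of 1490 (15.7%) were higher in knockout by at least 1.5-fold without overlap. The log2 difference was 0.83 when signals were floored at the 40th percentile, and without each array in turn it ran from 2.19 to 2.53. The deposited values carry no detection call, so whether Cxadr was detected at all in wild type was not settled.

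Tjp1 encodes ZO-1, a scaffold that ties tight junction proteins and connexin 43 to actin. Its probe set 99935_at gave 3034 and 3233 in knockout, against 2246 and 2941 in wild type. The knockout arrays were the higher ones, but the lower of them lay close to wild-type replicate 2. The log2 difference was 0.29 (SE 0.23), and it was 0.09 when wild-type replicate 1 was left out and 0.48 when wild-type replicate 2 was. After scaling the arrays to 1 median the groups overlapped (0.24). A weak second set, 162298_r_at, gave 52.3 and 96.9 in knockout, against 155 and 73.8 in wild type, and was not tested.

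Gja1 encodes connexin 43, the main gap junction channel of the working ventricle. Its strong probe set, 100064_f_at, gave 42920 and 42213 in knockout, against 46388 and 36347 in wild type. The wild-type arrays enclosed both knockout arrays, with a log2 difference of 0.05 (SE 0.23). The second set, 100065_r_at, gave 2896 and 2145 in knockout, against 1543 and 2320 in wild type (log2 0.40, SE 0.31), and the groups overlapped there too. The order of the 2 wild-type arrays was opposite on the 2 Gja1 sets. In Affymetrix naming the letter f in an ID marks probes shared by related sequences and r marks a set for which some probe design rules were dropped.

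Cdh2 encodes N-cadherin, the classical cadherin of the disc, which binds β-catenin (Ctnnb1), which in turn binds the actin-linking α-catenin (Ctnna1). The Cdh2 set, 102852_at, gave 10128 and 9924 in knockout, against 7642 and 11723 in wild type. The Ctnnb1 set, 160430_at, gave 9163 and 8505 in knockout, against 8239 and 10025 in wild type. The Ctnna1 set, 93364_at, gave 12509 and 11977 in knockout, against 10581 and 14420 in wild type. In all 3 genes the wild-type arrays were the extremes and the knockout arrays lay close together between them.

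The 3 genes shared 1 order of arrays, with wild-type replicate 2 highest, then knockout replicate 1, knockout replicate 2 and wild-type replicate 1. That order held for 274 of the 7453 tested probe sets (3.68%), where the possible orders each held for 3.48% to 5.82%. Tjp1 and Perp were also lowest on wild-type replicate 1. The shared order was seen in the values, and likeness between genes over the 4 arrays was not tested. Wild-type replicate 2 exceeded wild-type replicate 1 by 0.62 on the log2 scale for Cdh2, by 0.45 for Ctnna1 and by 0.28 for Ctnnb1, where the 5th and 95th percentiles of tested probe sets were -0.97 and 0.95. The differences between genotypes were smaller than this spread. They were 0.08 (SE 0.28) for Cdh2, -0.04 (SE 0.22) for Ctnnb1 and -0.01 (SE 0.24) for Ctnna1, the last 2 turning to 0.02 and 0.05 after quantile normalization. Without wild-type replicate 1 the Cdh2 difference was -0.23, and without wild-type replicate 2 it was 0.39. A second Ctnna1 set, 161254_r_at, was below the floor on all 4 arrays, with signals of 28.0 and 53.4 in knockout, against 47.2 and 44.4 in wild type.

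**Figure D3:**
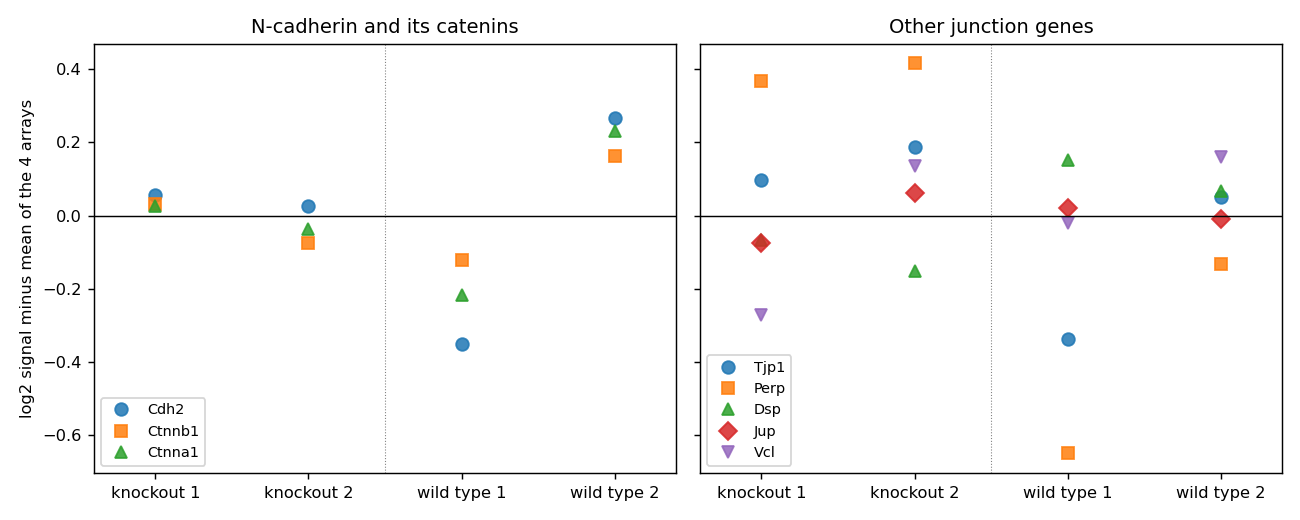
Log2 signal of the strongest probe set minus its mean over the 4 arrays (vertical axis) on each array (horizontal axis, knockout left of wild type), for N-cadherin and its catenins in the left panel and for 5 other genes in the right panel. Cdh2, Ctnnb1 and Ctnna1 are lowest on wild-type replicate 1 and highest on wild-type replicate 2, and Tjp1 and Perp are also lowest on wild-type replicate 1.

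Vcl encodes vinculin, which links α-catenin at the disc, and talin at costameres, to actin. Its stronger set, 94963_at, gave 7322 and 9710 in knockout, against 8719 and 9878 in wild type (log2 -0.14, SE 0.24). The weaker set, 94964_at, gave 491 and 708 in knockout, against 498 and 473 in wild type (log2 0.28, SE 0.26). The groups overlapped on both sets and the signs of the differences were opposite. Without knockout replicate 1 the stronger set's difference was 0.07, and without knockout replicate 2 it was -0.34.

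Jup encodes plakoglobin, a relative of β-catenin found in both desmosomes and adherens junctions. The Jup set, 104121_at, gave 7409 and 8143 in knockout, against 7918 and 7745 in wild type. The 2 wild-type arrays lay between the 2 knockout arrays, and the log2 difference was -0.01 (SE 0.20), or 0.04 after quantile normalization.

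Dsp encodes desmoplakin, the desmosomal plaque protein that anchors desmin filaments. Its strong set, 94247_at, gave 34330 and 32409 in knockout, against 39979 and 37716 in wild type. Both knockout arrays were lower than both wild-type arrays, by 1.16-fold between means of log2 signal (log2 -0.22, SE 0.20), and the difference ran from -0.26 to -0.18 without each array in turn. After quantile normalization it was -0.13 and the groups overlapped. Lower signal in knockout without overlap, at any fold, was found for 16.7% of all tested probe sets. The weak set 161892_r_at gave 156 on both knockout arrays, against 42.6 and 133 in wild type, the opposite direction. It was not tested.

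Perp encodes a tetraspan membrane protein that is a target of p53 and is needed in mice for the desmosomes of stratified epithelia. Its set, 97825_at, gave 13195 and 13645 in knockout, against 6518 and 9329 in wild type. The knockout arrays were close to each other and above both wild-type arrays, which themselves differed 1.43-fold. The means were 13420 ± 318 in knockout and 7923 ± 1988 in wild type (SD, n = 2 each), with a log2 difference of 0.78 (SE 0.26), or 1.72-fold between means of log2 signal. It was 0.52, under 1.5-fold, when wild-type replicate 1 was left out, and 1.04 when wild-type replicate 2 was. Among the strongest 20% of tested probe sets, where Perp lies, 33 of 1491 (2.21%) were higher in knockout by at least 1.5-fold without overlap.

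**Figure D4:**
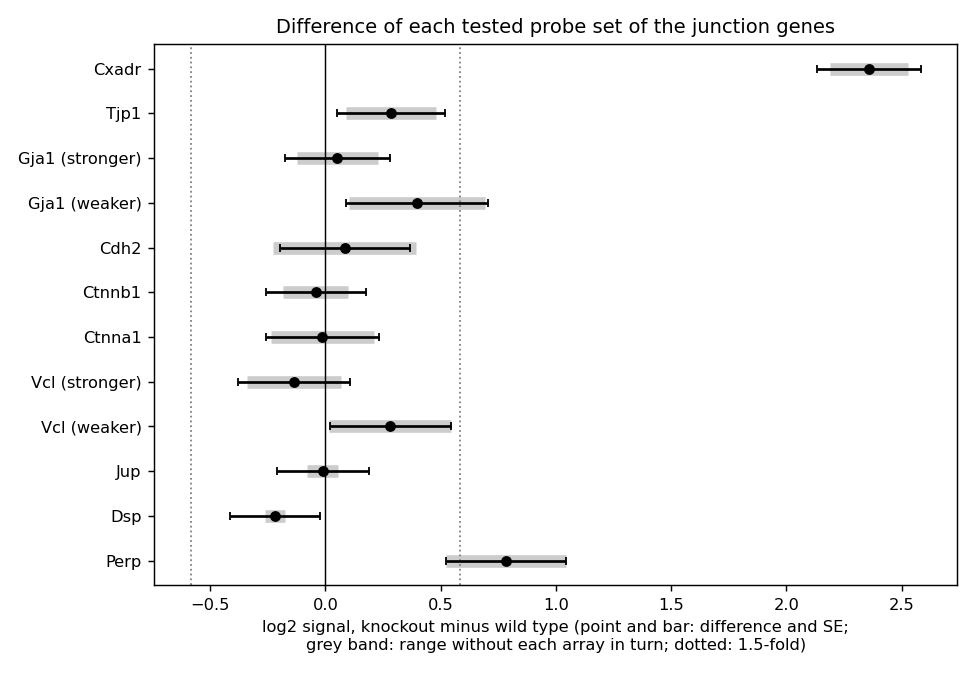
Log2 signal difference, knockout minus wild type (horizontal axis), of the 12 tested probe sets, with stronger and weaker sets of a gene marked; points with bars are the difference and its SE from limma, grey bands the range without each array in turn, and dotted lines 1.5-fold. Cxadr at 2.36 and Perp at 0.78 lie beyond 1.5-fold, and the band of Perp reaches 0.52.

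RNA came from whole ventricle, so fewer cells of a type and less RNA per cell cannot be told apart. Several markers of other cells were higher in knockout beside Cxadr and Perp. Their counts without overlap stand beside 20.7% of all tested probe sets higher in knockout and 16.7% lower. Of 14 epithelial and mesothelial markers 13 were on the array and 5 were tested. Among these 5, Cdh1 (E-cadherin; log2 0.56), Wt1 (0.50) and Upk3b (0.30) were higher in knockout without overlap, and Cldn4 (-0.16) and Sfn (-0.21) overlapped. Wt1, with means of 436 in knockout and 309 in wild type, was tested only because of its knockout signal. After either other scaling Upk3b overlapped too, with differences of 0.25 and 0.26. The summed signal of the 13 was 5956 and 5538 in knockout, against 4971 and 4454 in wild type. Epcam, Msln and the keratins Krt5, Krt8, Krt14, Krt18 and Krt19 were under the filter, with none at 0.

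Fibroblast markers were higher in knockout without overlap for 6 of 9 tested, among them Lum by 0.79, Col1a1 by 0.63, Col3a1 by 0.53 and Dcn by 0.33 on the log2 scale, with a list median of 0.31. The other 3, Tcf21 (-0.09), Postn (-0.02) and Dpt (-0.03), overlapped. The summed signal of the 9 was 87023 and 91565 in knockout, against 64316 and 75536 in wild type. Dcn alone gave most of it, at 58034 and 58177 in knockout, against 42240 and 50324 in wild type. Of 8 atrial markers 5 were tested. Myl4 (log2 1.18), Stard10 (1.06), Myl7 (0.79) and Nppa (0.72) were higher without overlap, while Clu was lower (-0.97). The summed signals of the 7 on the array overlapped at 31381 and 32617 in knockout, against 35477 and 29322 in wild type. Clu alone gave 9841 and 11055 in knockout, against 22402 and 18647 in wild type. It made up most of the wild-type sums, so their overlap does not describe the other atrial markers. Of 7 immune markers 6 were tested. Cd52 (log2 0.30), Cd14 (0.26) and Csf1r (0.24) were higher without overlap, and Lyz2 (0.34), Cd68 (0.14) and Tyrobp (-0.43) overlapped. The summed signal of the 7 was 14093 and 12930 in knockout, against 12315 and 11287 in wild type. None of these markers passed limma's threshold, and their part in the Cxadr and Perp differences was not tested.

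Ventricular muscle markers, which share their cells with most disc genes, had a median log2 difference of -0.12 over 10 genes. Tnnt2 (log2 -0.20), Tnni3 (-0.16) and Mb (-0.27) were lower in knockout without overlap, as Dsp was before quantile normalization, and the other 7 overlapped. Endothelial markers had a median of -0.07 over 8 genes, with Tie1 (-0.57) and Cdh5 (-0.54) lower without overlap. The others, Kdr (0.09), Emcn (0.04), Vwf (-0.03), Tek (-0.05), Cldn5 (-0.09) and Pecam1 (-0.27), overlapped. Smooth muscle markers had a median of 0.08 over 4 genes, with Acta2 higher at 2.04 and the other 3 overlapping. Of 3 tested adipocyte markers Adipoq (1.44) and Lep (0.76) were higher and Cidea (-0.76) was lower without overlap. Adipoq, with means of 645 in knockout and 243 in wild type, was tested only because of its knockout signal.

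Further junction genes were taken from 5 lists of 107 genes in all, of which 67 were on the array and 43 were tested. None passed limma's threshold (lowest adjusted p = 0.694), and 1 (2.33%) had an unadjusted p under 0.05, beside 6.79% of all tested probe sets. Higher signal in knockout of at least 1.5-fold without overlap was found for 1 gene (2.33%), beside 6.84% of all tested probe sets, and lower signal for 1 gene (2.33%), beside 4.20%. The gene above was Actn1, whose probe set ID carries the letter f, the mark of probes shared by related sequences. The one below was Cldn3, whose knockout mean of 259.5 lay under the filter, so that it was tested only because of its wild-type signal. In all, 15 of the 43 did not overlap at any fold (34.9%, beside 37.4%), and the median log2 difference was -0.09.

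Among desmosome genes 6 were tested, with a median log2 difference of -0.25. Pkp2, plakophilin 2, binds desmoplakin at the plaque. It gave 4330 and 4450 in knockout, against 5970 and 5870 in wild type (log2 -0.43, SE 0.19). The ID of this Pkp2 set carries the letter f too, and only the strongest of 3 Pkp2 sets is given. Des, the desmin filament protein that desmoplakin anchors, gave 6268 and 6250 in knockout, against 6990 and 8236 in wild type (log2 -0.28, SE 0.21). Both were lower in knockout without overlap (beside 16.7% of all tested probe sets), as was Dsp before quantile normalization. Ppl, periplakin, was higher without overlap at 0.14 (beside 20.7%). Pkp4 (-0.23) and the desmosomal cadherins Dsg2 (0.22) and Dsc2 (-0.32) overlapped. Dsc1, Dsc3, Pkp1 and Pkp3, known chiefly from stratified epithelia, were under the filter.

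Of 11 tested adherens junction genes 2 were higher (beside 20.7% of all tested probe sets) and 3 lower (beside 16.7%) without overlap, none by 1.5-fold, with a median of 0.00. Nrap, an actin-binding protein of developing myofibril ends and the disc, gave 12265 and 13535 in knockout, against 17977 and 14553 in wild type (log2 -0.33, SE 0.22). Lima1, an actin-bundling LIM protein, gave 715 and 751 in knockout, against 970 and 1026 in wild type (log2 -0.45, SE 0.20). Cdh5, the endothelial cadherin, was lower at -0.54, and Cdh1 was higher at 0.56. These 2 cadherins are markers of other cells and were also counted above. Ctnnd1, a further catenin and the other gene higher without overlap, gave 10631 and 9892 in knockout, against 9060 and 9035 in wild type (log2 0.18, SE 0.20).

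Of 3 tested connexins besides Gja1, namely Gja5, Gjb1 and Gjb5, all overlapped, with a median of 0.17. The tight junction list, which holds partners of the Cxadr protein, had 8 tested genes, a median of -0.17 and 1 gene without overlap. That was Cldn3, claudin 3, at 121 and 398 in knockout, against 507 and 457 in wild type (log2 -1.13, SE 0.60), with knockout replicate 1 far below the other arrays. F11r, which encodes the related adhesion protein JAM-A, gave 2722 and 2250 in knockout, against 2422 and 2338 in wild type, with overlap.

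Of 15 tested genes of vinculin's costamere partners 2 were higher (beside 20.7% of all tested probe sets) and 4 lower (beside 16.7%) without overlap, with a median of -0.04. Actn1, the non-muscle α-actinin 1, gave 2396 and 2788 in knockout, against 1536 and 1635 in wild type (log2 0.71, SE 0.21). The letter f in the ID of this set marks probes shared by related sequences, so its signal may not be specific to Actn1. Of 3 Actn1 sets on the array only the strongest is given. Lims1, the adaptor PINCH1, which binds integrin-linked kinase, gave 3971 and 3422 in knockout, against 5055 and 4809 in wild type (log2 -0.42, SE 0.21). Pxn, paxillin, and Plec, plectin, were lower at -0.29 and -0.20.

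**Figure D5:**
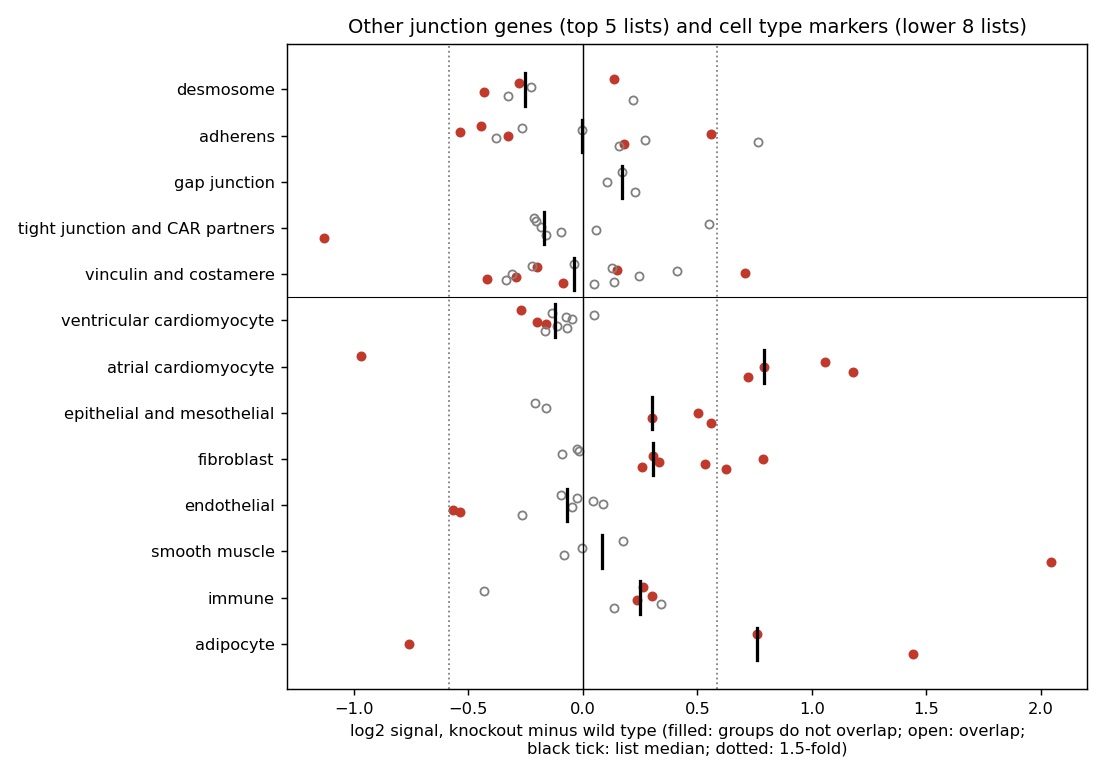
Log2 signal difference, knockout minus wild type (horizontal axis), of each tested gene of 5 junction lists (above the line) and 8 cell type marker lists (below it); filled red points are genes whose groups do not overlap, open points overlap, black ticks are list medians and dotted lines 1.5-fold. Junction genes lie mostly within 1.5-fold, with list medians from -0.25 to 0.17. Marker list medians are -0.12 (ventricular), 0.79 (atrial), 0.30 (epithelial and mesothelial), 0.31 (fibroblast), -0.07 (endothelial), 0.08 (smooth muscle), 0.25 (immune) and 0.76 (adipocyte). The atrial and adipocyte medians rest on 5 and 3 genes.

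Promoter sequence was available in the RefSeq table (GRCm38.p6) for 6 of the 10 genes (Tjp1, Gja1, Ctnnb1, Vcl, Jup and Dsp), in 7 windows from 250 bases before to 50 after a start. The searches below therefore cover neither Cxadr nor Perp, nor Cdh2 and Ctnna1. AAGGTCA, the core of the site that ERR family receptors bind, was searched on both strands and found in 0 of the 7 windows, beside 4.72% of 32851 promoters, and the shorter hexamer AGGTCA that it contains was also in 0, beside 16.3%. The GC box GGGCGG was in 6 of 7, beside 35.7%, Gja1 being the window without it. Ctnnb1 had more than 1 window, and these overlapped, so this gene was counted more than once. A match or its absence describes only these letters in these windows. Tjp1 and Dsp are shown because they are the members with a window whose groups did not overlap, 1 higher and 1 lower in knockout. Capitals mark the GC box on either strand (GGGCGG or CCGCCC), and sequences run 5′ to 3′ on the gene's strand.
Tjp1, chr7:65371195-65371494, minus strand: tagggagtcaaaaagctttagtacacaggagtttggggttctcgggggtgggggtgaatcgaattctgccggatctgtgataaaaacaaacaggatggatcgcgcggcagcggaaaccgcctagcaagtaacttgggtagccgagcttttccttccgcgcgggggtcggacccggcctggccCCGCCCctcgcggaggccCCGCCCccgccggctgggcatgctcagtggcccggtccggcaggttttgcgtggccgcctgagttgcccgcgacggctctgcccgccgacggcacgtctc
Dsp, chr13:38151044-38151343, plus strand: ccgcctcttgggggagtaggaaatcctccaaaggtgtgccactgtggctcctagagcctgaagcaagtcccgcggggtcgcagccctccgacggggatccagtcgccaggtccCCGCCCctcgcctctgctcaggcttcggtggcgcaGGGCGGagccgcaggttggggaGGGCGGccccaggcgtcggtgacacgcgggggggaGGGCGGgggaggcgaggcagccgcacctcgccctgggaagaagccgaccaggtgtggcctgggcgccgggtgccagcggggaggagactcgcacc
The Tjp1 window holds 2 GC boxes and the Dsp window holds 4.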

How the data were processed

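Total RNA of ventricle was labelled as biotin cRNA and hybridized to 4 one-colour Affymetrix arrays, per the labels' protocols. The deposited values are 1 linear intensity per probe set, scaled by array, with a mean of 1501 on each after trimming 2% of values at either end. The software, background correction and genome build are not given in the sources used here. Whether numbered samples are separate animals is not stated, so p-values reflect only how these arrays vary, possibly for technical reasons.

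Gene symbols came from the platform annotation, and 10817 of 10833 probe sets with 1 symbol matched the RefSeq table of GRCm38.p6. Of the rest, 396 had several symbols and 1193 none, and 66 controls were left out. Probe sets with a mean under the 40th percentile (350.6) were left out, leaving 7453. Signals under 110, the 20th percentile of all values, were set to that floor before log2. The comparison used limma 3.58.1 (R 4.3.3; lmFit and eBayes, with Benjamini-Hochberg adjustment over all 7453). The steps were tested on simulated data. For lists, a gene was represented by its strongest probe set. The members, lists and tests were chosen with earlier results of these data known. Named genes were all members, Esrra, and of each list up to 4 genes with the largest differences among those without overlap. Nppa, Myh6, Myl2, F11r, Dsg2, Dsc2, Ctnnd1 and genes named as overlapping or under the filter fall outside that rule and were chosen with their values seen. The alternatives changed the floor, the filter, the scaling, the prior, the replicate number as a block, the summary of probe sets and the arrays used. For arrays, their number limits the precision.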

Additional observations from a re-analysis of the deposited data

How the results depend on the processing

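The median log2 difference of the 10 genes, 0.02, ran from -0.09 without wild-type replicate 1 to 0.15 without wild-type replicate 2, so that its sign turned, and was -0.01 with Cxadr left out, an alternative chosen after seeing the data. The count of member probe sets at least 1.5-fold apart without overlap was 2, and 1 with the filter at the 60th percentile, which leaves out Cxadr. Without each array it ran from 1 (without wild-type replicate 1, when Perp was at 0.52) to 3. The same count over all probe sets, 823 in all, was 1488 with no filter and 327 with the filter at the 60th percentile, and from 1383 to 1523 without each array, since fewer arrays overlap less often. Of those 823, 62.0% were higher in knockout, against 48.9% after quantile normalization. Cxadr was at 2.20 after quantile normalization, and its limma adjusted p ran from 0.320 to 0.752 over its alternatives. That of Perp ran from 0.542 to 0.892.

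The 1 probe set past limma's threshold became 0 with the floor at the 5th percentile, with the floor at the 40th percentile, with no filter, with the replicate block and without each array (0 to 0), and 2 with the filter at the 60th percentile and with the trend and robust prior, and the cause was not tested. At an unadjusted p under 0.05 there were 506. Deviations of same-numbered samples correlated at 0.01 across 7453 probe sets, so the numbers were not taken to pair the samples, and by its construction the replicate block changes neither the log2 differences nor the counts by fold and overlap. With the block the adjusted p was 0.594 for Cxadr and 0.750 for Perp, and 0 probe sets passed limma's threshold.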
